A study of Rattus norvegicus with 12 samples.

Results

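The genes described here code for the first steps of Gq signalling: the G-protein alpha subunits Gnaq and Gna11, the 4 phospholipase C beta enzymes Plcb1 to Plcb4, and the 3 inositol trisphosphate (IP3) receptors Itpr1, Itpr2 and Itpr3. All probe sets whose single gene symbol in the platform annotation was one of these 9 genes were taken, which gave 11 of the 31042 non-control probe sets on the array. Of these, 8 probe sets of 7 genes passed the filter on dim signals. The probe sets of Gnaq and Plcb3 and 1 of the pair for Plcb4 did not pass, and their values are given as descriptions.

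The receptor for gonadotropin-releasing hormone (GnRH) couples to Gq and the closely related G11. The activated alpha subunit switches on phospholipase C beta, which splits the membrane lipid PIP2 into diacylglycerol and IP3. IP3 opens its receptors on the endoplasmic reticulum, and the calcium that leaves the store drives secretion from gonadotropes, the pituitary source of follicle-stimulating hormone and luteinizing hormone (LH).

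The donors were adult female rats of the Sprague-Dawley strain, ovariectomized 2 weeks earlier, and each experiment pooled 13 to 15 anterior pituitaries. Sedimentation at unit gravity gave a pool of large cells, about 6% of the yield, in which 40 to 60% were LH-positive, while the unseparated cells had under 7%. They were cultured with E2 (estradiol) and charcoal-treated serum, and on day 3 wells received either vehicle medium or 10 nM GnRH for 40 min. RNA was amplified in 2 rounds with T7 RNA polymerase and each sample was put on 1 Affymetrix Rat 230 2.0 array. There were 6 vehicle and 6 GnRH arrays from 3 preparations, called enrichment sets I, II and III, with 2 arrays of each agent per set. The pooled cells were a mixture, so all values are averages over gonadotropes and other cells, and fewer cells of a type and less RNA per cell cannot be told apart.

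Signals below are the authors' probe set intensities, rescaled to a trimmed mean of 500 per array. The background level of an array is the 90th percentile of its 27 Bacillus control probe sets, and a probe set above it is called above background. Spike-in control signal was low on vehicle 1, 2 and 5 and GnRH 1 and 2, from 2265 to 11713, and high on the other 7 arrays, from 53515 to 320072. Background levels moved with it, from 54.4 to 94.4 on the low arrays and from 219 to 575 on the high ones. All 4 arrays of set I and 1 array of set III, vehicle 5, were low. Vehicle 3 was unlike the rest: its median Spearman correlation to them was 0.38, where theirs ran from 0.62 to 0.71, so values without it are given below. Of the 10 gonadotrope markers examined, 9 were above background on at least 4 of 6 vehicle arrays. The exception was Gnrhr, the GnRH receptor, above background on 3 vehicle and 3 GnRH arrays, while Lhb and Cga, which code for the LH subunits, were above it on all 12. All 4 markers of somatotropes and lactotropes also passed that mark.

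RefSeq promoters, 250 bases before to 50 after the start of each gene, matched 8 of the 9 genes, all but Plcb2. Those of Itpr1 and Plcb4 are shown because these alone of the 9 genes were above background on every array, and that of Itpr3 because it differed most between GnRH and vehicle. Capitals mark GC boxes (GGGCGG on either strand), except that the first run of capitals in Itpr3 also holds an EGR motif (GCGNGGGCG), which overlaps a GC box. All 3 lie on the plus strand of GRCr8: Itpr1 at chr4:142743190-142743489, Plcb4 at chr3:143405723-143406022 and Itpr3 at chr20:5138562-5138861.
Itpr1: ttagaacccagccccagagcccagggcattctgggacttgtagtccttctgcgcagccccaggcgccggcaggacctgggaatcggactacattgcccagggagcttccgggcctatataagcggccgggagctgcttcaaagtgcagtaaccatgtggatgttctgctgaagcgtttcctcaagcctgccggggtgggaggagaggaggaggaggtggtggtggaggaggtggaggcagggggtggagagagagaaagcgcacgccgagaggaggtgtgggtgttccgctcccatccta
Plcb4: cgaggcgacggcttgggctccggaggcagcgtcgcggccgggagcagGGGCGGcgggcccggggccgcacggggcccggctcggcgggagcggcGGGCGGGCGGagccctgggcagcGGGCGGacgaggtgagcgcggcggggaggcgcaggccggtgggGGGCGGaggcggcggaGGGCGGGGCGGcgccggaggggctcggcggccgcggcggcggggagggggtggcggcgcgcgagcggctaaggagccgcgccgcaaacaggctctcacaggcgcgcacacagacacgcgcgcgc
Itpr3: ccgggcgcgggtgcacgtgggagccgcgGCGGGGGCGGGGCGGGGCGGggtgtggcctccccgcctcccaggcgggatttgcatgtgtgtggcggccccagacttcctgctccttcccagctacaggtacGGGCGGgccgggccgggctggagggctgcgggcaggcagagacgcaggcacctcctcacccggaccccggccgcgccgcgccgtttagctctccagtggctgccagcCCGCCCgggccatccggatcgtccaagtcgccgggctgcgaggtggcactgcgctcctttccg

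The 8 promoters were rich in G and C, at 61.7 to 84.3% against a median of 51.7% over 33469 promoters. GC boxes were present in 33.1% of all promoters. Plcb3 and Plcb4 held 7 matches each, Itpr3 held 5, Itpr2 held 4, Gnaq and Gna11 held 2 each, and Plcb1 and Itpr1 held 0. The EGR motif, the binding sequence of early growth response factors, was found in Gnaq, Plcb3 and Itpr3 and in 4.98% of all promoters; each of these matches overlapped a GC box. A TATA motif (TATAAA) was found in Plcb1 and in 14.2% of all promoters. The cAMP response element (TGACGTCA, 1.83% of promoters), the AP-1 motif (TGANTCA, 7.33%) and the CArG box (1.64%) had 0 matches in the 8 windows. These matches are letters in a sequence and no binding was measured.

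The first question was which paralogs of each step were present in vehicle-treated cultures. By the rule of at least 4 of 6 vehicle arrays above background, 5 of the 11 probe sets were present, against 54.1% of all non-control probe sets. They belonged to Gna11, Plcb1, Plcb4, Itpr1 and Itpr3. On all 6 vehicle arrays, 3 of the 11 were above background (Plcb4, Itpr1 and Itpr3), against 18.8% of all. A low signal of a probe set reads its own probes as well as the RNA, so levels of different genes are not ranked here.

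**Figure D1:**
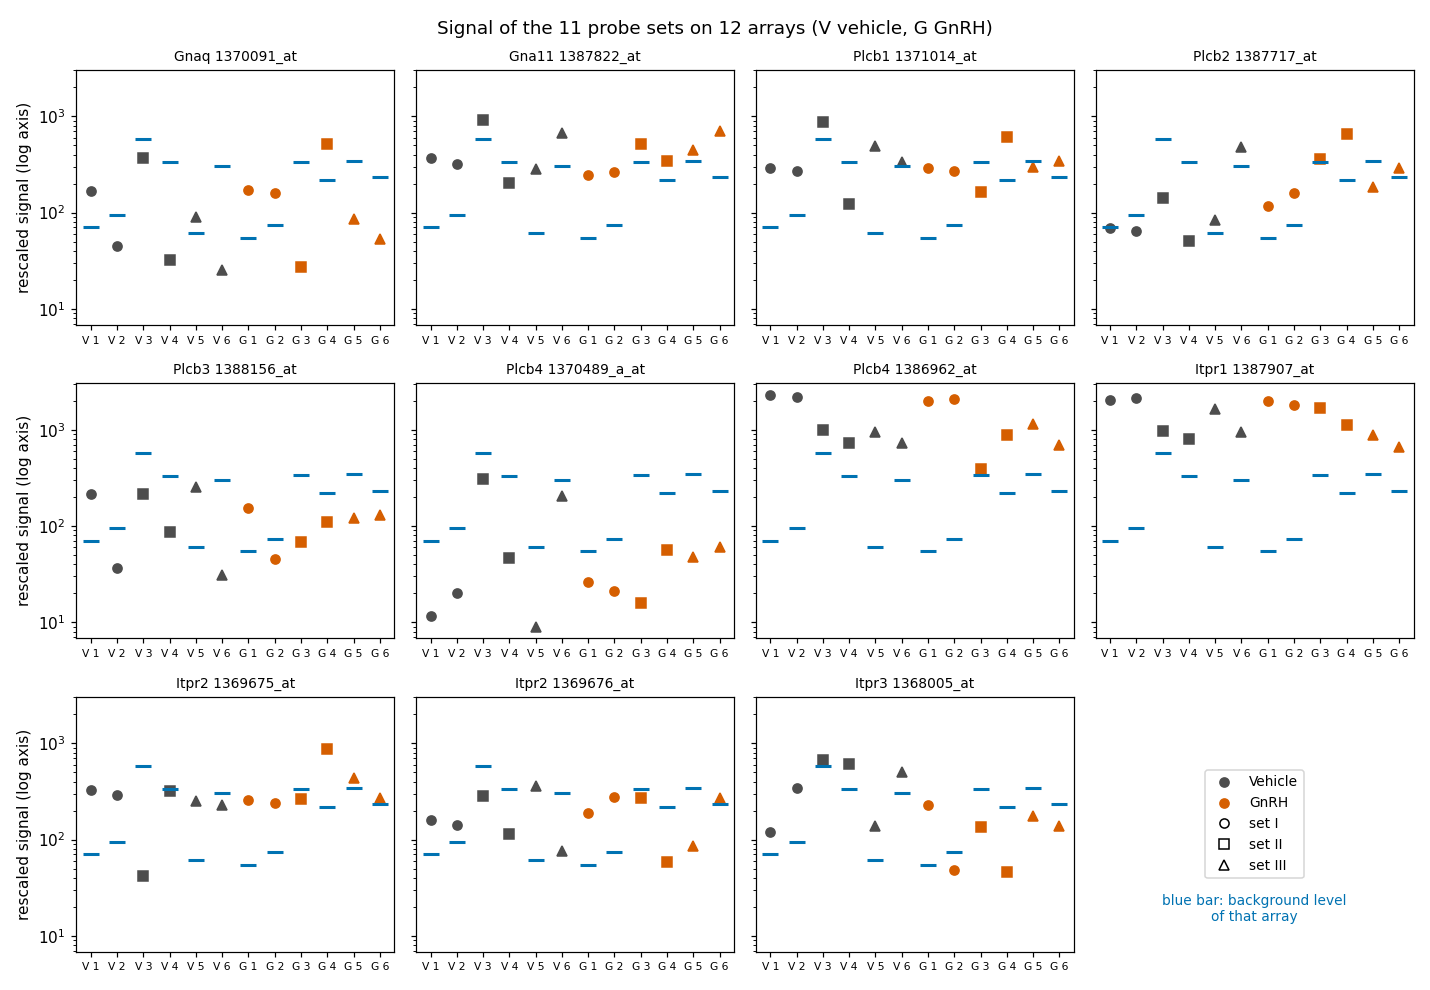
Rescaled signal (log axis) of the 11 probe sets on each of the 12 arrays. Grey marks are vehicle, orange marks GnRH, the shape gives the enrichment set, and blue bars are the background level of each array; Plcb4 (1386962_at) and Itpr1 lie above the bars on all 12 arrays.

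Among the alpha subunits, Gna11 was above background on 5 vehicle and 6 GnRH arrays. Its vehicle signals ran from 201 over a median of 341 to 908, and its GnRH signals from 248 over 397 to 702. The GnRH values lay inside the vehicle range, and vehicle 4 was the 1 array below background.

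Gnaq, the alpha subunit that gives Gq its name, was above background on 2 vehicle and 3 GnRH arrays. The vehicle signals ran from 25.2 over a median of 67.5 to 371, and the GnRH signals from 26.9 over 123 to 510, so the groups overlapped almost fully. It was above background on 4 of the 5 arrays with low spike-in signal and on 1 of the 7 with high signal.

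Of the phospholipase C beta enzymes, Plcb4, best known from retina and cerebellum, was the clearest. Its probe set 1386962_at was above background on all 12 arrays. In set I the signals were 2305 and 2173 with vehicle and 1995 and 2063 with GnRH. In set II they were 988 and 736 with vehicle and 389 and 891 with GnRH. In set III they were 936 and 728 with vehicle and 1153 and 689 with GnRH. Every array of set I was above every array of the other sets, while vehicle and GnRH arrays overlapped.

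The margin over background differed between arrays as well. On the 5 arrays with low spike-in signal the Plcb4 signal was 15.3 to 36.6 times the background level, and on the other 7 it was 1.16 to 4.07 times. The other Plcb4 probe set, 1370489_a_at, was not above background on any of the 12 arrays, with signals of 9.02 to 310 on vehicle and 15.9 to 60.4 on GnRH arrays. The pair thus disagreed on whether Plcb4 was detected, and the array annotation used here does not say which transcripts each one reads. No fold is given for the dim one.

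Plcb1, a widely expressed enzyme of the class, was above background on 5 vehicle and 4 GnRH arrays. Its signals ran from 123 over a median of 311 to 881 with vehicle and from 165 over 296 to 611 with GnRH. The lowest and highest vehicle values were both in set II, on vehicle 4 and vehicle 3.

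Plcb3, which is also widely expressed, was above background on 2 vehicle arrays and 1 GnRH array, all 3 with low spike-in signal. Its signals were 30.7 to 252 with vehicle and 45.5 to 155 with GnRH, and the groups overlapped.

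Plcb2, known mainly from blood cells, was above background on 2 vehicle and 5 GnRH arrays. In set I its signals were 68.4 and 65.0 with vehicle against 118 and 159 with GnRH. In set II they were 141 and 50.8 against 360 and 652, and in set III 83.5 and 480 against 182 and 292. Vehicle 3 and vehicle 6 lay inside the GnRH range and the other 4 vehicle arrays were below every GnRH array, so the groups overlapped.

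Markers of leukocytes are given beside Plcb2 because blood cells express it. On the array, 3 of 8 leukocyte markers were above background on at least 4 vehicle arrays. The markers that did not pass the filter were Ptprc, Cd68, C1qb and Tyrobp. The summed signal of the list was 769 to 3139 on vehicle and 736 to 1982 on GnRH arrays. The part of such cells in the Plcb2 values was not tested.

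Among the IP3 receptors, Itpr1, the main receptor of neurons, was above background on all 12 arrays. In set I its signals were 2050 and 2113 with vehicle and 1983 and 1807 with GnRH. In set II they were 970 and 793 against 1691 and 1121, and in set III 1641 and 945 against 878 and 665. GnRH arrays were the higher pair in set II and the lower pair in sets I and III, so the groups overlapped. The signal was 22.4 to 36.4 times the background level on arrays with low spike-in signal and 1.69 to 5.12 times on the others.

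Itpr2, known from heart muscle and exocrine glands, was read by a pair of probe sets. Probe set 1369675_at was above background on 3 vehicle and 5 GnRH arrays, with signals from 41.5 over a median of 271 to 328 with vehicle and from 240 over 266 to 863 with GnRH. Probe set 1369676_at was above background on 3 arrays of each agent, from 76.3 over 152 to 355 with vehicle and from 58.6 over 228 to 274 with GnRH. Vehicle 3 was lowest of its group in the first and second highest in the other, so the pair did not move together on that array. On the 5 arrays with low spike-in signal both probe sets were above background every time.

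Itpr3, known from epithelia and exocrine glands, was above background on all 6 vehicle arrays and on 1 GnRH array. In set I its signals were 121 and 344 with vehicle and 227 and 48.5 with GnRH. In set II they were 662 and 605 against 136 and 46.0, and in set III 137 and 497 against 177 and 137. In set II both vehicle arrays were far above both GnRH arrays, while in sets I and III the agents overlapped.

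**Figure D2:**
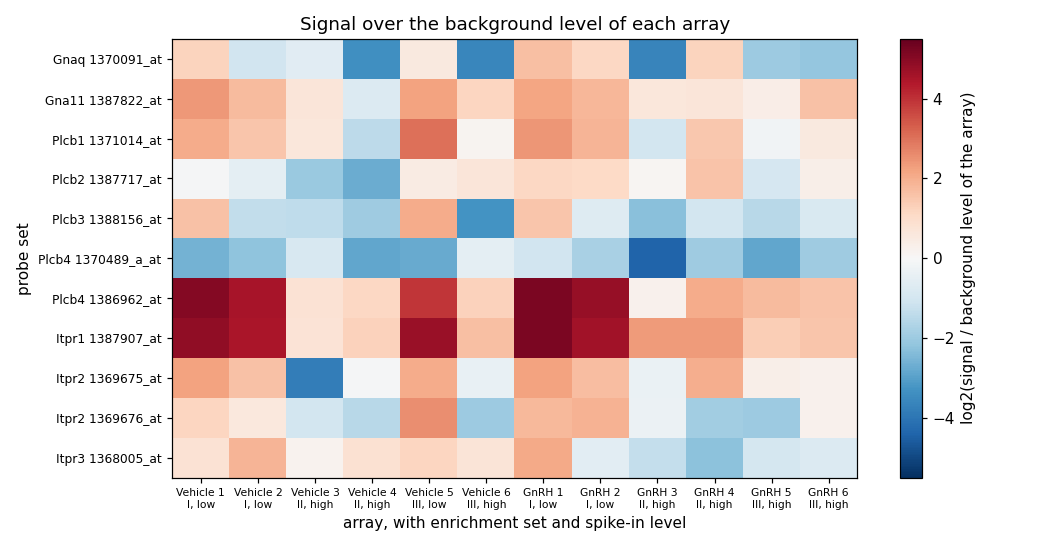
Log2 ratio of each probe set's signal to the background level of the same array, for 11 probe sets (rows) and 12 arrays (columns, with enrichment set and spike-in level). Red is above background; the rows of Plcb4 (1386962_at) and Itpr1 are red throughout and deepest on the 5 arrays with low spike-in signal, and the Itpr3 row is red on 6 vehicle arrays and 1 GnRH array.

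The main comparison asked whether 40 min of GnRH altered these transcripts. With limma over all 18625 probe sets past the filter and the enrichment set as a block, 0 of the 8 member probe sets passed an adjusted p of 0.05, against 0.00537% of all probe sets (1 of 18625). At an unadjusted p under 0.05, 1 of 8 passed (Itpr3), against 3.45% of all. Of the 8, 2 were higher and 6 lower in GnRH arrays, with a median log2 difference of -0.04, beside 9993 higher and 8632 lower and a median of 0.04 over all tested probe sets. Without vehicle 3 these medians were 0.20 and -0.03.

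The tightest bounds were on Itpr1 and Plcb4. Itpr1 gave a log2 difference, GnRH minus vehicle, of -0.06 ± 0.28 (SE, n = 6 per group; limma adjusted p = 0.999), a fold of 0.958 with a 95% interval of 0.634 to 1.45. Plcb4 (1386962_at) gave -0.18 ± 0.28 (limma adjusted p = 0.981), a fold of 0.880 with an interval of 0.583 to 1.33. Changes inside these intervals remain compatible with the values. The intervals are before adjustment over all tested probe sets and are not limits of detection, so larger changes could also fail to pass.

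Itpr3 was lower in GnRH arrays, with a log2 difference of -1.42 ± 0.57 (SE, n = 6 per group; limma adjusted p = 0.981), which did not pass. This is a fold of 0.373 with a 95% interval of 0.161 to 0.863. The same difference was -0.82 in set I, -2.74 in II and -0.71 in III, and GnRH exceeded vehicle in 6 of the 36 pairs of arrays. Without vehicle 3 the log2 difference was -1.24. Because 5 of the 6 GnRH values were not above background, the size of the fold is uncertain.

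Few probe sets shared the detection pattern of Itpr3. Being above background on all 6 vehicle and at most 1 GnRH array held for 6 of 31042 probe sets (0.0193%), but this rule was written after the Itpr3 values were seen and supports nothing. It also depends on where background is set, since above the median of the control probe sets Itpr3 counted on 6 vehicle and 5 GnRH arrays. Above the 40th percentile of all non-control probe sets it counted on 5 and 1.

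Pomc, the prohormone gene of corticotropes, was also lower in GnRH arrays, by a log2 difference of -1.77 (limma adjusted p = 0.981; n = 6 per group), which did not pass. Within sets I, II and III it differed by -0.55, -2.35 and -2.40. Its probe set was above background on 4 vehicle and 2 GnRH arrays, so the size of the difference is uncertain. The other 2 genes of that list, Pcsk2 and Tbx19, were higher in GnRH arrays by 0.56 and 0.64 without passing, and the median of the 3 was 0.56. The summed signal of the 3 corticotrope and melanotrope markers was 943 to 2886 on vehicle and 1263 to 2369 on GnRH arrays. The part of those cells in the Itpr3 difference was not tested.

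Plcb2 was higher in GnRH arrays by a log2 difference of 1.11 ± 0.56 (SE, n = 6 per group; limma adjusted p = 0.981), which did not pass. The fold was 2.16 with a 95% interval of 0.956 to 4.89, and without vehicle 3 the log2 difference was 1.12. Within sets I, II and III the differences were 0.89, 2.29 and 0.16, and GnRH exceeded vehicle in 30 of 36 pairs. With 4 of the 6 vehicle values not above background, the size of this fold is uncertain too.

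The other tested probe sets had smaller differences. Itpr2 differed by 0.67 ± 0.54 (SE) for 1369675_at and by -0.00 ± 0.56 for 1369676_at, and the first fell to 0.21 without vehicle 3, its lowest vehicle array. Gna11 differed by -0.03 ± 0.42, with an interval of -0.92 to 0.87, and Plcb1 by -0.13 ± 0.49, with an interval of -1.16 to 0.90. Without vehicle 3 the values of Gna11 and Plcb1 turned to 0.24 and 0.20. In a fit without the filter, Gnaq differed by 0.43 ± 0.70 and Plcb3 by -0.12 ± 0.63, and neither passed.

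**Figure D3:**
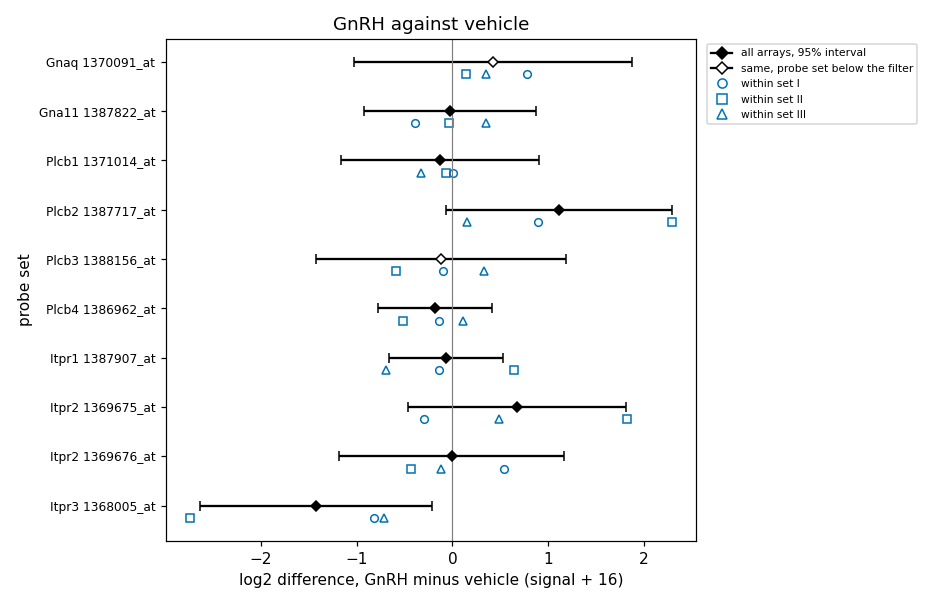
Log2 difference, GnRH minus vehicle, of log2(signal + 16) for the 10 probe sets above background on at least 1 array. Diamonds with bars are the limma estimates from all 12 arrays with 95% intervals (open where the probe set did not pass the filter) and blue marks are the differences within each enrichment set; the interval of Itpr3, -2.64 to -0.21, is the one that leaves out 0, before adjustment.

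The study itself asked for a fold of 1.50 or more and for 50% or more of the pairwise comparisons to concur. Applied to the signals, without the GCOS change calls, this rule put Plcb2 among the higher probe sets, with 72.2% of the 36 pairs up by at least 1.50-fold, and Itpr3 among the lower ones, with 75.0% down. Over all tested probe sets the rule called 7.62% higher and 7.6% lower. The other 6 tested member probe sets met neither side.

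The GnRH response was then compared between preparations. By the limma F test of the interaction, 0 of 8 member probe sets passed, as did 0% of all 18625, with 999 of all and 0 of the members at an unadjusted p under 0.05. The limma adjusted p of the members was at least 0.929. Arrays of the same agent and set differed by a median of 0.16 on the log2 scale in set I, 1.21 in II and 0.64 in III. These medians are over all 11 member probe sets, including those that did not pass the filter. Over all tested probe sets, which leave out dim ones, the medians were 0.32, 0.82 and 0.77, so the comparison is not like for like.

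Levels in the 3 preparations were compared next. By the limma F test between sets, 1 of 8 member probe sets passed, against 6.02% of all, and it was Plcb4 (1386962_at). Its log2 level was lower by 1.56 ± 0.34 (SE, n = 4 arrays per set) in set II than in set I and by 1.30 ± 0.34 in set III (limma adjusted p = 0.0263). Set I was thus 2.96-fold above set II and 2.46-fold above set III, a pattern of set I above both others that 3.94% of all probe sets showed. Without vehicle 3 the adjusted p was 0.00973.

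Itpr1 was also highest in set I, without passing, with log2 differences of -0.84 for set II minus set I and -1.01 for set III minus set I, each ± 0.34 (SE; limma adjusted p = 0.116). The other 6 probe sets had a limma adjusted p of at least 0.431.

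**Figure D4:**
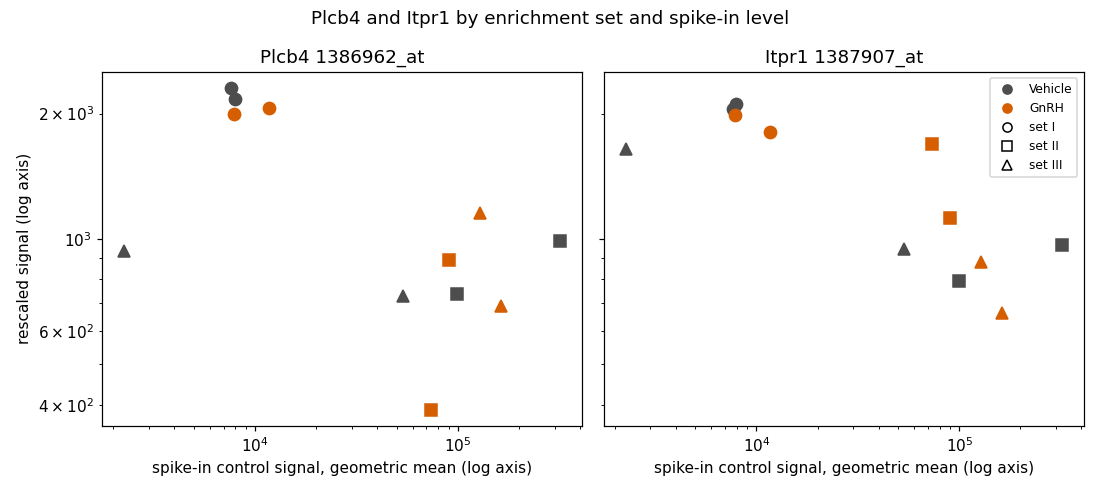
Rescaled signal of Plcb4 (1386962_at, left) and Itpr1 (right) against the geometric mean of the spike-in control signal of the same array, both on log axes; colour gives the agent and shape the enrichment set. The 4 set I arrays form the top group for Plcb4, and vehicle 5, the set III array with the lowest spike-in signal, reads 936 for Plcb4 and 1641 for Itpr1.

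Spike-in level moved with the set. The geometric mean of Plcb4 was 1807 on the 5 arrays with low spike-in signal and 759 on the 7 others, and that of Itpr1 was 1911 and 969. Vehicle 5 was the 1 low array outside set I. Its Plcb4 signal of 936 and its Itpr1 signal of 1641 both lay within the range of sets II and III, where GnRH 3 read 1691 for Itpr1, and below every array of set I. With spike-in level as a covariate the adjusted p of Plcb4 was 0.243, and the log2 differences were -1.73 for set II minus set I and -1.39 for set III minus set I. The call was also lost by leaving out any of the set I arrays, with adjusted p of 0.113 and 0.0729 without vehicle 1 and vehicle 2 and 0.109 and 0.108 without GnRH 1 and GnRH 2.

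The 3' to 5' signal ratio of Gapdh, a measure of product length and RNA integrity, also differed by set. On the log2 scale it was 4.48 to 5.45 in set I and 2.96 to 4.37 in sets II and III. The Actb ratio was 4.16 to 4.82 in set I and 2.45 to 4.90 elsewhere. The part of these ratios in the Plcb4 difference was not tested.

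Genes that act beside this pathway were examined in 8 lists, and 0 of their 84 tested genes passed for GnRH against vehicle. Heterotrimeric alpha subunits of other classes had 2 of 6 higher with a median log2 difference of -0.36, and the smallest p in that list was that of Gnao1 (-0.86 ± 0.53). The beta and gamma subunits, which travel with the alpha subunits, had 8 of 12 higher with a median of 0.27. Within them Gng7 differed by 1.19 ± 0.53 (limma adjusted p = 0.981), and it was above background on 3 vehicle and 5 GnRH arrays. Gng8, named after its values were seen, differed the other way by -1.25 ± 0.56 (limma adjusted p = 0.981) and was above background on 6 vehicle and 2 GnRH arrays. The chaperones, receptor kinases and arrestins had 3 of 6 higher with a median of -0.17, led by Ric8a, a chaperone of alpha subunits (-0.45 ± 0.27).

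Phospholipase C enzymes of other classes had 3 of 7 higher with a median of -0.17, led by Plcg1, the form used by tyrosine kinase receptors (0.61 ± 0.53). The enzymes that supply PIP2 had 7 of 11 higher with a median of 0.07, led by Pitpna, a phosphatidylinositol carrier (0.74 ± 0.37). Those that remove IP3 and diacylglycerol had 9 of 16 higher with a median of 0.16, led by Ipmk, an inositol phosphate kinase (-0.70 ± 0.46).

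Binding partners of the IP3 receptors had 6 of 11 higher with a median of 0.09, led by Erp44, an endoplasmic reticulum protein that binds Itpr1 (0.64 ± 0.39). Genes of store filling and other store channels had 9 of 15 higher with a median of 0.15, led by Mcu, the mitochondrial calcium uniporter (-0.89 ± 0.50). These errors are SE with 6 arrays per group, and the limma adjusted p was 0.981 for each gene named.

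**Figure D5:**
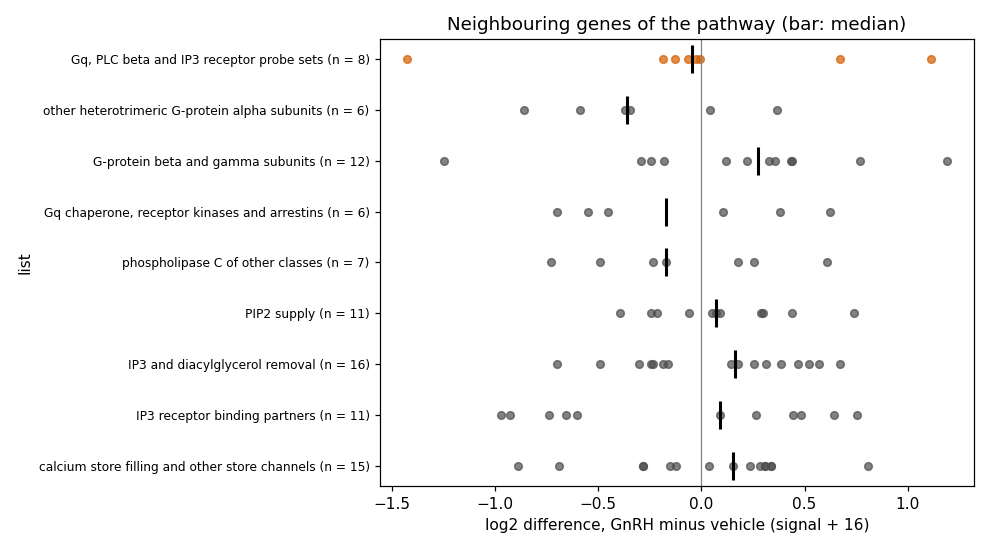
Log2 difference, GnRH minus vehicle, of each tested gene of the 8 neighbouring lists (grey) and of the 8 Gq, phospholipase C beta and IP3 receptor probe sets (orange); bars are medians. Each list spans 0, and the list medians lie between -0.36 and 0.27.

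Between preparations, 5 of these 84 genes (5.95%) passed the F test between sets, a share near the 6.02% of all probe sets, so the count is not particular to the lists. Atp2b1, a plasma membrane calcium pump, and Gng10 were higher in set I than in both other sets. Dgkz, a diacylglycerol kinase, and Pi4kb, a phosphatidylinositol kinase, were lower in set I than in both others. Pip4k2a was lower in set II by 1.46 on the log2 scale and differed by 0.02 in set III. Of the 37 tested cell type markers, 2 passed (5.41%), again near the background share. Pomc was higher in set I (log2 differences of -2.86 for set II and -2.77 for set III). Acta2, a smooth muscle and pericyte gene, was lower there (1.57 and 1.38). Pomc was above background on only 4 vehicle and 2 GnRH arrays. Other genes of the lists that hold Pomc and Acta2 were mixed, without passing. Pcsk2 differed by -0.49 and -0.41, in the direction of Pomc, and Tbx19 by 1.05 and 0.02. Col1a1 (0.23 and 0.43) and Col3a1 (0.74 and 0.43) went in the direction of Acta2. Col1a2 (-0.43 and -0.10) and Dcn, a fibroblast gene (-0.87 and -0.70), went the other way. The part of cell make-up in the Plcb4 difference was not tested.

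For each gene the most similar probe sets over the 12 arrays, after subtracting set means, are named as a description. Pearson's r was 0.95 between Plcb4 and both Myc and Eif4e. It was 0.92 between Itpr1 and Septin8 and 0.91 with Yme1l1. It was 0.94 between Itpr3 and Dhx34 and 0.92 with Rgs8. For Plcb2 the closest were Pmpcb (0.95) and Itgb1bp1 (0.93), and for Plcb1 they were Kdm7a (0.97) and Etv3 (0.97). For Gna11 they were Mdc1 (0.93) and Zfp503 (0.93), and for Itpr2 (1369675_at) Tafazzin (0.97) and Ung (0.96). The points share arrays and spike-in level, and these are the highest of all such correlations.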

How the data were processed

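RNA of 12 samples was measured on 12 arrays, 6 per agent. The authors deposited linear intensity signals, 1 per probe set, from GCOS, per the submitters' processing notes. The GCOS version is not given in the sources used. Deposited trimmed means lay between 497 and 499, so the authors had scaled the arrays. Per the labels, set I lost its scanner files. Of 31099 probe sets, 57 controls were set aside; 20826 of the 31042 others carry 1 gene symbol, 436 several and 9780 none. An Entrez identifier matched the RefSeq gene table of GRCr8 for 20758, and 0 symbols changed.

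Arrays were rescaled to a trimmed mean of 500 (2% off each end), 16 was added and log2 taken, so folds of dim genes are understated. Probe sets with a mean log2 value at or above the 40th percentile were tested in limma 3.58.1 (R 4.3.3) with agent and enrichment set, an intensity trend and Benjamini-Hochberg adjustment over 18625 probe sets. F tests compared sets and the agent by set interaction. The steps were tested on simulated data. Lists of 8 pathway and 9 marker groups were used, with the brightest tested probe set standing for a gene; the text names all members, the smallest p of each pathway list, any list gene that passed, and the 2 most similar genes; marker genes and genes named for set differences were chosen after their values were seen. The members and lists were chosen with earlier results of these data known.

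The samples are titled biological replicates, but nothing says that wells of 1 preparation were separate cultures, so p-values measure the spread between these samples. The number of arrays limits the precision. Array pairs had Spearman correlations of 0.35 to 0.94, and none was identical. Alternatives were the pseudocount, filter, deposited scale, quantile normalization, replicate block, array weights, spike-in covariate, background rule and omission of each array.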

Additional observations from a re-analysis of the deposited data

Results flagged for a closer look

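The Itpr2 signal of vehicle 3 (1369675_at) was 41.5, far below the next vehicle array at 230, and on the scale of log2(signal + 16) the gap was 0.813 of the group's whole range. Of 22 groups of 6 arrays checked this was the 1 that stood out, where chance gives about 1 in 20. Vehicle 3 also had the highest spike-in signal of all arrays, 320072, and the highest background level, 575.

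The Itpr1 differences between GnRH and vehicle had opposite signs in different sets. Within set II both GnRH arrays were above both vehicle arrays, with a log2 difference of 0.64, and within sets I and III both were below, with -0.14 and -0.69. The difference between sets did not pass the interaction test (limma adjusted p = 0.929). In set III vehicle 5 alone had low spike-in signal, and it read 1641 for Itpr1. Without vehicle 5 the Itpr1 difference over all sets was 0.11. The part of spike-in level in these signs was not tested. For Itpr2 (1369675_at) both GnRH arrays were above both vehicle arrays in set III, with 0.49, and below them in set I, with -0.30 (limma adjusted p of the interaction = 0.950).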

How the results depend on the processing

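In every alternative run, 0 member probe sets passed for GnRH against vehicle. The interaction was refitted with other pseudocounts, no filter, the deposited scale, quantile normalization, array weights and each omission, and 0 passed. Plcb2 and Itpr3 met the study's rule in each setting where it was applied. These were other pseudocounts, no filter, the deposited scale, quantile normalization, pairs within sets and each omission. Itpr3 stayed lower, from -1.72 to -0.65 over 12 alternatives and from -1.74 to -1.10 over 12 omissions of 1 array. Plcb2 stayed higher, from 0.85 to 1.24 over 11 alternatives and from 0.81 to 1.52 over the omissions; on the 5 arrays with low spike-in signal it did not pass the filter. Values near 0 changed sign, and so did that of Itpr2 (1369675_at), which was 0.67 in the main run. The cause was not tested. Itpr2 (1369676_at) became 0.00753 with a pseudocount of 64, 0.41 with array weights, 0.12 with the spike-in covariate and 0.15 on the 5 low arrays. Itpr2 (1369675_at) became -0.0181 with array weights and -0.21 on those arrays, where Plcb4 became 0.27. The run on the 5 low arrays, which also gave the -0.65 of Itpr3, had no set term. Its GnRH arrays were all of set I, while its vehicle arrays included vehicle 5 of set III, so agent and set are mixed in it. Within set I the Plcb4 difference was -0.14. Itpr1 became 0.0316 with quantile normalization and 0.13 with the spike-in covariate, and Plcb1 0.0542 with array weights. Omissions gave -0.29 to 0.24 for Gna11, -0.47 to 0.20 for Plcb1, -0.31 to 0.00377 for Plcb4, -0.22 to 0.11 for Itpr1 and -0.24 to 0.29 for Itpr2 (1369676_at).

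The count between sets was 0 with quantile normalization (Plcb4 adjusted p = 0.0639) and with the spike-in covariate, where 26 of all probe sets passed, and 2 with array weights (Plcb4, and Itpr1 at 0.0154), where 4528 passed. It was 0 to 2 over the omissions, with Itpr1 at 0.0409 without vehicle 5. Over all probe sets, calls numbered 612 with quantile normalization and 128 to 2333 over the omissions, against 1122. Member probe sets above background numbered 10 with the median of the controls, 7 with the 40th percentile of all non-control probe sets and 3 with all 6 vehicle arrays required. With the replicate block in place of the set, 0 members passed and the log2 differences were the same. Deviations of same-numbered arrays from the means of their agent and set correlated at -0.14 in set III and at -0.03 in the other two, so the numbers were not taken as pairs, and replicate 1 alone correlated best with its own number. Dim probe sets on arrays with high background limit the folds of Gnaq, Plcb2, Plcb3, Itpr2 and Itpr3.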
